A study of Mus musculus with 12 samples.

Results

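The measurement described here is the effect of 2 h in EBSS on control mouse embryonic fibroblasts, taken as 3 libraries of starved cells against 3 libraries of fed cells, 6 of the 12 libraries of the series, over all genes. The cells carry floxed alleles of Vps15 (Vps15f/f), and the control cells, called WT by the labels, had received adeno-GFP, by its name an adenovirus that carries a fluorescent protein and no recombinase, so their Vps15 alleles remain floxed and unrecombined by design. The library names also carry the term pLEX, which the labels do not explain. Sampling came 5 days after transduction. Pik3r4 encodes Vps15, which scaffolds and regulates the class 3 PI3K (Vps34), the lipid kinase that serves autophagy and endosome traffic. Fed (basal) cells were in DMEM with high glucose at 4.5 g/L and 10% fetal bovine serum, grown to 90% confluence, and starved cells were moved from it to EBSS. The other 6 libraries are of the same cells given adeno-CRE (Vps15KO), fed or starved in the same way, and they enter here through the filter on low values, the shared estimate of spread and 1 test of the difference in the EBSS effect. The line is a single Vps15f/f fibroblast line by its label, and nothing states whether the 3 libraries of a group came from separate cultures, so p-values measure the spread between these libraries, which may be technical.

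EBSS is a balanced salt solution that holds glucose but neither amino acids nor serum, so amino acids, growth factors and serum lipids leave the cells together. Its glucose level is not given in the sources used here and may differ from the 4.5 g/L of the fed medium. Loss of amino acids and growth factors switches off the kinase complex mTORC1 at the lysosome, which releases autophagy and lets TFEB and TFE3 enter the nucleus, while loss of insulin-like signals frees FOXO factors from cytoplasmic retention. Uncharged tRNA activates the kinase GCN2, and translation of the factor ATF4 follows, with its targets in amino acid uptake and synthesis. No group in basal medium without serum or without amino acids alone was part of the design. The parts that the loss or change of each component plays, glucose included, cannot be told apart.

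The WT libraries held 21278921 to 21698584 reads in genes. Of 32721 genes, 14279 had values high enough to be tested. In WT cells EBSS raised 4486 of these genes (31.4% of those tested) and lowered 4468 (31.3%), 62.7% in all, at an adjusted p under 0.05, by limma's moderated test. These shares are the background against which each count of WT changes below is read. The lists were chosen with earlier results of these data known, so a count that departs from the background is a description and not a test. A rise of at least 1 on the log2 scale was found in 558 genes (3.91%) and a fall of at least 1 in 239 (1.67%). In 9310 genes (65.2%) the values of the 2 groups did not overlap, with starved libraries above in 32.7% and below in 32.5%. The median change over all tested genes was -0.02. Log2 changes are differences of the authors' variance-stabilized values, which understate the ratio for genes with few reads, and the value after ± is the standard error of the fit. Rankings by size use these changes, and an order by the ratio of counts can differ. Normalized counts are reads divided by the library's size factor. The log2 values rest on the same scaling, which tends to hold the median change near 0. Rises and falls are thus relative to the other genes of a library, and a shift of all genes alike would not be seen.

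Some libraries stood apart from their replicates. The basal replicate 2 differed from the other basal libraries by a chi-square per gene of 22.06 and 21.02, against 3.238 between those. The EBSS replicate 1 differed from the other EBSS libraries by 8.451 and 12.16, against 3.924. Without both libraries 4201 genes rose and 4106 fell, of which 3986 and 3853 were also called with all libraries, and no gene was called in opposite directions. Mitochondrially encoded mRNA took 1.031% of reads in EBSS replicate 1, below the 1.672% and 1.818% of the other EBSS libraries. Across 13704 genes the WT change had a Spearman rho of 0.3078 with transcript length and -0.2826 with GC content. Genes are not independent replicates, so these are descriptions, and counts with both trends removed are given below for the groups whose counts moved most.

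Fibroblast markers were present in all 6 WT libraries, with summed normalized counts of 529523 to 616299, and 14 of 15 passed the filter on low values. The marker that did not was Thy1, at 1, 3.18 and 2 in basal and 0, 1.02 and 1.02 in EBSS libraries. Markers of other cell types were far lower but not all absent. Macrophage markers summed to 969 to 1010 in basal and 860 to 948 in EBSS libraries, with 3 of 10 tested and Adgre1 and Tyrobp at 0. Endothelial markers summed to 873 to 1198 and 725 to 839 (3 of 10 tested, Emcn at 0), and epithelial markers to 65.0 to 75.2 and 72.2 to 88.6 (2 of 10 tested, Esrp1 at 0). Skeletal muscle markers summed to 1836 to 2665 in basal and 1347 to 1390 in EBSS libraries (5 of 10 tested, Myog, Ckm and Pax7 at 0), and neural markers to 2331 to 2553 and 2338 to 2435 (4 of 10 tested, Sox10 and Syp at 0). The macrophage, endothelial and muscle sums were lower in every starved library than in every fed one. So were those of the fibroblast markers, at 589991 to 616299 in basal and 529523 to 562912 in EBSS libraries. The part of these sums in the results was not tested. Pik3r4, which encodes Vps15, had normalized counts of 864, 879 and 884 in basal and 959, 891 and 834 in EBSS libraries. The groups overlapped, and the change of 0.03 ± 0.07 was not called (adjusted p = 0.738).

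By size, the leading rise among called genes without overlap between fed and starved libraries was that of Slc30a1, the zinc exporter ZnT1 of the plasma membrane. Its normalized count was 35.1, 40.2 and 45.0 in basal libraries and 1471, 1268 and 1212 in EBSS libraries. Every starved library lay far above every fed one, a rise of 4.36 ± 0.10 (adjusted p = 4.22e-16). Mt2, a metallothionein that binds zinc, had 599, 741 and 710 in basal medium and 4789, 3779 and 3939 in EBSS, a rise of 2.56 ± 0.09. Mt1, its neighbour on the chromosome, went from a mean of 4334 ± 679 (SD, n = 3) to 14151 ± 1785 and rose by 1.70 ± 0.10. Mtf1 encodes the zinc-sensing factor that drives these genes, and it rose by 0.73 ± 0.08. The 2 metallothioneins are near-identical over short stretches, so reads may have been split unevenly between them.

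The zinc genes are shown with sequence because MTF1 is known to bind metal response elements with the letters TGCACNC or TGCGCNC. Both strands of the 250 bases before each RefSeq start (GRCm38.p6, the build the authors name as mm10) were searched, and capitals mark each match.
Slc30a1, chr1:191906726-191906756, plus strand: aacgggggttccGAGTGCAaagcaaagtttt
Mt1, chr8:94179054-94179084, plus strand: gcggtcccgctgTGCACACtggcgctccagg
Mt2, chr8:94172383-94172586, plus strand: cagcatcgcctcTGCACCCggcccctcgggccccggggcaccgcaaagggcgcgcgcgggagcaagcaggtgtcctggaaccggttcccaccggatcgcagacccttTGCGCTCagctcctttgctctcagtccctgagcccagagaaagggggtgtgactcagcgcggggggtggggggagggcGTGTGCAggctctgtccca
The matches nearest the start lay 43, 23 and 50 bases before it in Slc30a1, Mt1 and Mt2. The motifs are short and common: 10.6% of the 10879 promoters of tested genes held the first form and 21.5% the second, and in genes that rose by at least 1 the shares were 10.5% and 19.8%. A match is a description of these letters and shows no binding.

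The response was limited to part of the zinc list, in which 8 of 18 tested genes rose and 3 fell. Among other exporters Slc30a4 rose by 0.39 ± 0.10, which was 0.24 without basal replicate 2 and was not called with trends of length and GC content removed. Of the importers, Slc39a9 rose by 0.79 ± 0.07 and Slc39a6 by 0.42 ± 0.06, while Slc39a1 fell by 0.44 ± 0.06. The other falls, of Slc30a6 (0.19 ± 0.08) and Slc39a14 (0.16 ± 0.07), were lost when any single library but basal replicate 2 or EBSS replicate 3 was left out. With length and GC trends removed 6 members of the list fell, and the metallothioneins and Mtf1 still rose.

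**Figure D1:**
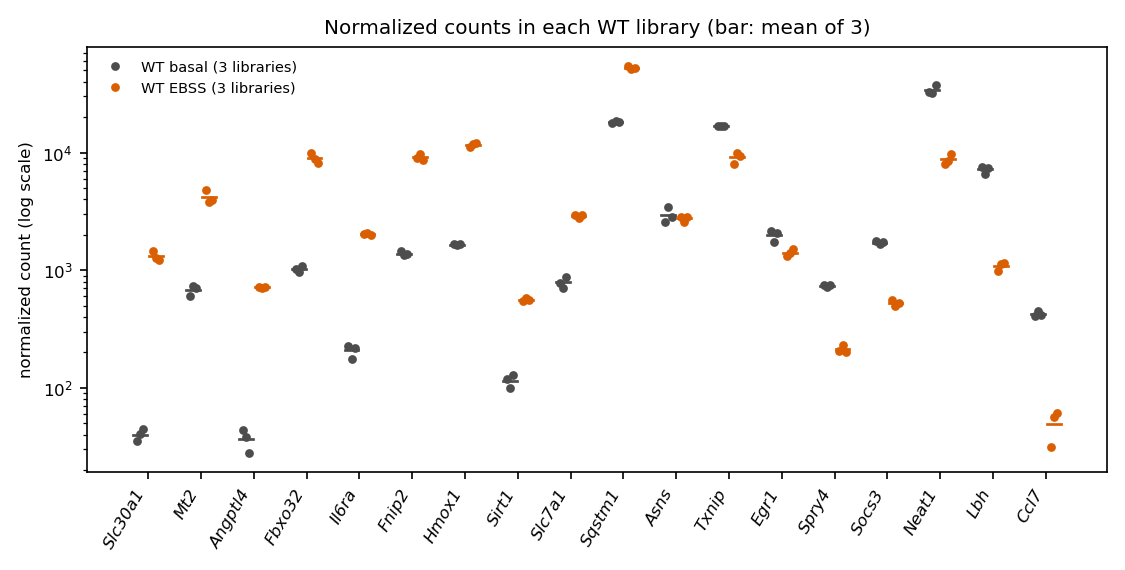
Normalized counts (log axis) of 18 genes in each WT library, basal in grey and EBSS in orange, with bars at the mean of 3 libraries; the genes were chosen after their values were seen. Starved libraries lie above all fed ones from Slc30a1 to Sqstm1 and below them from Txnip to Ccl7, while for Asns the 2 groups overlap.

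Genes that control mTORC1 at the lysosome moved in several directions. Folliculin, with its partners Fnip1 and Fnip2, is the GTPase activator for RagC and RagD that lets mTORC1 phosphorylate TFEB and TFE3. All 3 genes of this complex rose, with a median change of 2.08. Fnip2 had normalized counts of 1451, 1339 and 1369 in basal and 9017, 9763 and 8689 in EBSS libraries, a rise of 2.70 ± 0.06 (adjusted p = 4.22e-16). Fnip1 rose by 2.08 ± 0.10 from a mean of 932 to one of 4001, and Flcn by 1.31 ± 0.06 from 2200 to 5496. Among the Rag GTPases Rragc rose by 1.17 ± 0.06, from 2346, 2349 and 2230 to 5494, 5130 and 5077. Rragd had few reads, 9.02, 15.9 and 9.00 in basal and 49.3, 32.6 and 37.7 in EBSS, and rose by 0.95 ± 0.14. Rragb rose by 0.59 ± 0.10, and Rraga had a change of 0.05 ± 0.08 that was not called.

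The Ragulator scaffold that holds the Rag GTPases on the lysosome was split. Lamtor3 rose from 1025, 896 and 950 to 2027, 1875 and 1898, Lamtor2 and Lamtor4 fell by 0.47 ± 0.06 and 0.37 ± 0.11, and Lamtor4 fell by 0.21 without basal replicate 2. Of the MiT/TFE factors, Tfeb fell from 784, 883 and 723 to 434, 393 and 434, by 0.88 ± 0.08, Mitf rose by 0.34 ± 0.08, and Tfe3 was not called (0.07 ± 0.06). With length and GC trends removed Mitf was no longer called, and neither were the falls of Lamtor2 and Lamtor4.

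Upstream, Tsc1, a subunit of the TSC complex that switches off Rheb, had 756, 816 and 752 in fed and 2096, 1962 and 1710 in starved libraries. The groups did not overlap, and Tsc1 rose by 1.28 ± 0.08. Its partner Tsc2 was not called (-0.10 ± 0.07), and Rheb itself rose by 0.42 ± 0.06. Of 9 tested sensors of amino acids and stress, 7 rose and 2 fell. The sestrins, which bind leucine or respond to stress, all rose: Sesn1 by 0.48 ± 0.07, Sesn2 by 0.75 ± 0.08 and Sesn3 by 0.90 ± 0.11. The Castor genes, of the arginine sensing arm, moved apart. Castor1 fell from 534, 638 and 495 to 163, 204 and 237 (by 1.36 ± 0.11), whereas Castor2 rose from 399, 271 and 365 to 780, 801 and 687 (by 1.09 ± 0.11). Slc38a9, the arginine sensor in the lysosomal membrane, fell by 0.60 ± 0.09. Sirt1, the NAD-dependent deacetylase placed in the same group as a stress sensor, rose by 2.05 ± 0.10, from 118, 99.5 and 129 to 551, 577 and 558.

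GATOR1 and its KICSTOR anchor carry the amino acid signal to the Rag GTPases, and 6 of the 11 tested GATOR and KICSTOR genes fell. The GATOR1 subunits Nprl2, Nprl3 and Depdc5 fell by 0.88 ± 0.09, 0.82 ± 0.08 and 0.28 ± 0.07. Nprl3 read 588, 605 and 625 in fed libraries and 309, 338 and 349 in starved ones, without overlap. In KICSTOR, Kptn fell by 0.59 ± 0.11 while Itfg2 rose by 0.64 ± 0.08. In the kinase complexes Mtor fell by 0.33 ± 0.06, while Rictor of mTORC2 rose by 0.55 ± 0.09 and Akt1s1 (PRAS40, an inhibitor) by 0.82 ± 0.09.

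**Figure D2:**
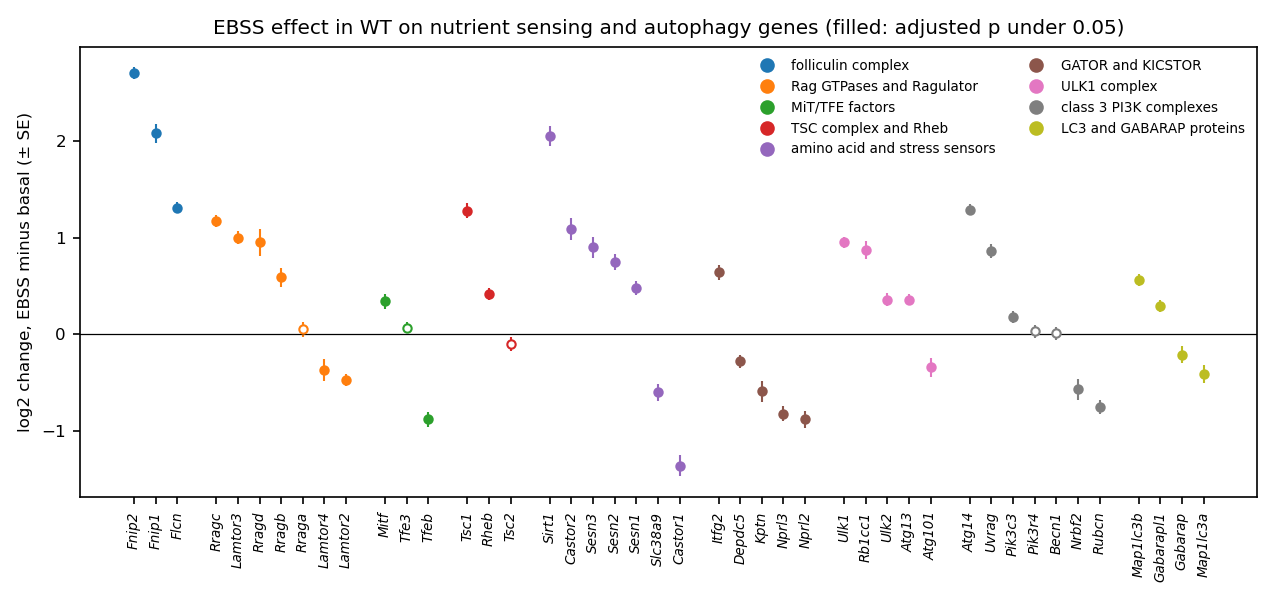
Log2 change of EBSS over basal in WT (± SE of the fit) for those members of 9 groups of nutrient sensing and autophagy genes that the text names, filled where adjusted p was under 0.05. The 3 folliculin complex genes lie from 1.31 to 2.70, while Castor1 lies at -1.36 and Nprl2 at -0.88.

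Autophagy genes are best described by step. The ULK1 kinase complex starts an autophagosome, and 4 of its 5 genes rose: Ulk1 by 0.95 ± 0.06, Rb1cc1 (FIP200) by 0.87 ± 0.09, Atg13 by 0.36 ± 0.06 and Ulk2 by 0.36 ± 0.07. Atg101 fell by 0.34 ± 0.10, a fall that was 0.19 without basal replicate 2 and was not called with length and GC trends removed. Ulk1 counted 1473, 1348 and 1402 in fed and 2835, 2772 and 2613 in starved libraries.

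The class 3 PI3K complexes make the lipid PI3P on the forming membrane. The core subunits changed little: Pik3c3 rose by 0.18 ± 0.06, and Becn1 (0.01 ± 0.07) and Pik3r4 were not called. With length and GC trends removed Becn1 was at -0.17 and called lower. The subunits that define a complex moved more. Atg14, which directs the kinase to autophagosome formation, rose by 1.29 ± 0.06, from 774, 699 and 711 to 1761, 1876 and 1812. Uvrag, of the endosomal complex, rose by 0.86 ± 0.07. Rubcn, an inhibitor that binds the UVRAG complex, fell by 0.75 ± 0.07, from 924, 915 and 1009 to 562, 549 and 545. Nrbf2 fell by 0.57 ± 0.11.

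Later steps held few large changes. Of 7 genes for ATG9, ATG2 and WIPI proteins Atg2b rose by 0.52 ± 0.08 and Atg2a fell by 0.37 ± 0.07. Among 10 conjugation enzymes 3 rose, with Atg12 at 0.79 ± 0.06 and Atg3 at 0.49 ± 0.07, and 3 fell, with Atg4d at -0.60 ± 0.10. Map1lc3b, the LC3 form in common use as a marker of autophagosomes, rose by 0.56 ± 0.06 and Gabarapl1 by 0.29 ± 0.06. Map1lc3a and Gabarap fell by 0.41 ± 0.09 and 0.21 ± 0.09. Without basal replicate 2 that of Map1lc3a was 0.27. Neither fall was called with length and GC trends removed, and that of Gabarap was also lost without basal replicate 2 or any EBSS library. Over the whole autophagy list 13 of 35 tested genes rose (31.4% over all genes) and 10 fell (31.3% over all genes), with a median of 0.07.

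Cargo receptors rose in 10 of 16 cases and fell in 2 (9 and 1 with length and GC trends removed). Sqstm1 (p62), which links ubiquitinated cargo to LC3 and is itself degraded in autophagy, had 17746, 18446 and 18124 in basal and 54071, 51270 and 52033 in EBSS libraries, a rise of 1.53 ± 0.07 (adjusted p = 4.96e-12). The replicates of each group differed by far less than the groups. Tollip rose by 1.21 ± 0.06, Ncoa4, the receptor for ferritin, by 0.91 ± 0.14, and Nbr1 by 0.70 ± 0.08. The falls were those of Fkbp8 (0.38 ± 0.08) and Stbd1, a receptor for glycogen (0.61 ± 0.13).

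Lysosomal genes as a list rose in 12 of 40 cases (31.4% over all genes) and fell in 9 (31.3% over all genes), with a median of -0.01. Single members stood out. Ctns, the lysosomal cystine exporter, rose by 1.19 ± 0.06 from 1305, 1181 and 1313 to 3040, 2883 and 2824. Gla, alpha-galactosidase A, rose by 1.15 ± 0.07 from 913, 960 and 1026 to 2306, 2198 and 2014. Lamp2, a lysosomal membrane protein, rose by 0.49 ± 0.09, while the cathepsin gene Ctsb was not called (-0.04 ± 0.08). The V-ATPase acidifies the lysosome, and 10 of its 16 tested subunit genes rose and 2 fell, with a median of 0.40. The largest rises were in the cytosolic V1 sector: Atp6v1c1 by 1.06 ± 0.06, Atp6v1b2 by 0.94 ± 0.06 and Atp6v1a by 0.87 ± 0.08. The falls were Atp6v1f (0.31 ± 0.08) and Atp6v0e (0.24 ± 0.07), or 0.18 and 0.14 without basal replicate 2. After removal of the length and GC trends 13 subunits rose and 2 fell.

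The palindrome TCACGTGA, the core of the CLEAR element bound by MiT/TFE factors, was found in 1.54% of promoters, in 2 of 20 lysosomal hydrolases, 2 of 11 lysosomal membrane proteins and 1 of 11 V-ATPase subunits. The 2 members that rose most among those with a match are printed with the matches in capitals, and they were chosen after their values were seen.
Gla, chrX:134601181-134601245, minus strand: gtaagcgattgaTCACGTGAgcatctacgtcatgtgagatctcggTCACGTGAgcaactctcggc
Atp6v1a, chr16:44139372-44139403, minus strand: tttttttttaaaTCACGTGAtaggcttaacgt
Flcn, Fnip1, Fnip2, Rragc, Rragd and Sqstm1 held no match in this window, which says only that these letters are not there.

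FOXO genes and their known targets rose almost throughout. Of 23 tested, 21 rose and 1 fell, with a median of 0.58, against 31.4% and 31.3% of all genes. Without the 2 libraries that stood apart 20 rose and 1 fell. The list was chosen with earlier results known, so the count is a description. Fbxo32, the ubiquitin ligase atrogin-1, had 1021, 965 and 1079 in basal and 9938, 8889 and 8136 in EBSS libraries, a rise of 3.10 ± 0.07 (adjusted p = 4.22e-16). Gadd45a, a DNA damage and growth arrest gene, rose by 2.00 ± 0.08 from 833, 965 and 912 to 3643, 3490 and 3924. Foxo1 itself counted 721, 710 and 722 in fed and 1782, 1820 and 1857 in starved cells, which are tight groups far apart, and it rose by 1.31 ± 0.06. Foxo3 rose by 0.33 ± 0.07. Bcl6, a transcriptional repressor, rose by 1.22 ± 0.09. The BH3-only gene Bcl2l11 (Bim), which promotes cell death, rose by 1.02 ± 0.08. Cited2 was the 1 member that fell, by 0.32 ± 0.06. The FOXO element GTAAACA was found in 2 of 16 promoters of the targets, and in 2.13% of all promoters.

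Receptors and adaptors for growth factors, several of which FOXO factors are known to induce, rose in 15 of 22 cases and fell in 4. Il6ra, the receptor for interleukin 6, had the largest rise among them, from 229, 176 and 220 to 2051, 2078 and 1996, or by 3.14 ± 0.09. Fgfr2 rose by 1.28 ± 0.07, Irs2, an adaptor of the insulin receptor, by 0.91 ± 0.11, Pdgfrb by 0.85 ± 0.06 and Pdgfra by 0.82 ± 0.07. Erbb2 fell by 0.73 ± 0.07 and Lifr by 0.78 ± 0.12. Igf1r was not called (-0.03 ± 0.08).

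Most amino acid carriers rose, while several classical ATF4 targets did not. Of 21 tested carriers 16 rose and 3 fell, with a median of 0.56. Slc7a1, the main importer of arginine and lysine, rose by 1.85 ± 0.07 from 778, 710 and 873 to 2943, 2766 and 2967. Slc38a2 (SNAT2), a sodium-coupled carrier of neutral amino acids, rose by 1.25 ± 0.07 from 12096, 9806 and 11730 to 26347, 27067 and 26236. Slc7a11, the cystine importer, rose by 1.48 ± 0.11 from 60.1, 67.7 and 67.0 to 292, 196 and 200. The EBSS replicate 1 was the highest for Slc7a11, and all 3 starved libraries were above the fed ones. Slc36a1, which exports amino acids from lysosomes, rose by 1.09 ± 0.07 and Slc7a5, an importer of large neutral amino acids, by 0.98 ± 0.08. The falls were Slc7a3 (0.49 ± 0.14), the glutamine carrier Slc1a5 (0.44 ± 0.08) and Slc38a10 (0.38 ± 0.07).

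In the ATF4 and CHOP list 15 of 22 genes rose and 2 fell, or 5 fell without basal replicate 1. Ndrg1 rose by 1.64 ± 0.06, Herpud1, of protein degradation at the endoplasmic reticulum, by 1.38 ± 0.07, and Sesn2 by the value given above. Atf4 had 8117, 10603 and 8558 in basal and 9655, 10539 and 12428 in EBSS libraries. Its groups overlapped, and the rise of 0.26 ± 0.09 (adjusted p = 0.0222) was lost without basal replicate 1 or 3 or EBSS replicate 3. Asns, asparagine synthetase, counted 2581, 3451 and 2855 in fed and 2862, 2562 and 2841 in starved cells and was not called (-0.09 ± 0.08). Trib3 (-0.23 ± 0.14) and Ddit3, which encodes CHOP (-0.24 ± 0.13), were not called either, and the basal replicate 2 was the highest of the 6 libraries in all 3 genes. Without basal replicate 1 each was called lower, Asns at -0.19, Ddit3 at -0.37 and Trib3 at -0.43. That fit keeps basal replicate 2, so its high values weigh more in the fed mean. Ddit3 was also called without basal replicate 3 (-0.33) and Trib3 without EBSS replicate 3 (-0.36). Chac1, a glutathione-degrading enzyme, fell from 1186, 1695 and 1284 to 645, 763 and 1020, or by 0.77 ± 0.13. Atf3 rose by 1.16 ± 0.08.

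The amino acid response element TGATGNAA, which binds ATF4 with C/EBP partners, was found in 2.13% of all promoters, in 4 of 12 of the stress effectors and in 2 of 5 of the cationic and heteromeric carriers. Of these 6 promoters, 4 are printed to show the element beside genes that moved in different ways, together with that of Atf3 from the immediate early list, and the choice was made after values were seen. The 2 not printed are those of Slc7a7, a carrier that rose by 0.85 ± 0.11, and Fgf21, a secreted stress hormone that was not called (-0.16 ± 0.14).
Slc7a11, chr3:50443641-50443691, minus strand, rose: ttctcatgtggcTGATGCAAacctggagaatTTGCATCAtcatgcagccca
Atf3, chr1:191183424-191183455, minus strand, rose: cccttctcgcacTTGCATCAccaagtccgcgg
Herpud1, chr8:94386305-94386336, plus strand, rose: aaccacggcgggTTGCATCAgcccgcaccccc
Asns, chr6:7693213-7693244, minus strand, not called: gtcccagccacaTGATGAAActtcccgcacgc
Chac1, chr2:119351037-119351068, plus strand, fell: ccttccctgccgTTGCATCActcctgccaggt
Capitals mark the element on either strand. Slc7a11 holds 2 copies facing each other, and the nearest copy lies 47 bases before the start. In Slc7a1, Slc38a2, Sesn2, Trib3 and Ddit3 the window held none.

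Enzymes that use amino acids moved in both directions. Of 17 enzymes of serine, glycine and folate metabolism 5 rose (31.4% over all genes) and 3 fell (31.3% over all genes). Without basal replicate 1 the falls numbered 5, and with length and GC trends removed 6 rose and 6 fell. Mat2a, which makes S-adenosylmethionine, rose by 1.75 ± 0.08 and Shmt1 by 1.49 ± 0.08, whereas Phgdh, the first enzyme of serine synthesis, was called only without basal replicate 2 among libraries left out singly (0.19 ± 0.09 with all, 0.32 without it). Cytosolic tRNA synthetases rose in 6 of 20 cases (31.4% over all genes) and fell in 8 (31.3% over all genes). Iars was at 0.66 ± 0.07 and Vars at -0.67 ± 0.08. Without basal replicate 2 or without EBSS replicate 2 only 5 synthetases fell.

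Immediate early genes, which growth factors induce within minutes through ERK and SRF, did not move as 1 block. Of 30 tested 16 rose and 9 fell. Egr1 had 2162, 1747 and 2074 in basal and 1319, 1395 and 1510 in EBSS libraries and fell by 0.49 ± 0.09. Nr4a1, an orphan nuclear receptor, fell by 0.72 ± 0.09 from 3033, 3034 and 2966 to 1774, 1653 and 2040. Fos and Fosb fell by 0.47 ± 0.10 and 0.48 ± 0.11. Other members of the same families rose: Egr2 by 0.99 ± 0.12, Egr3 by 1.02 ± 0.09 and Nr4a3 by 1.66 ± 0.11, the last from 212, 211 and 210 to 872, 639 and 689. Jun rose by 0.65 ± 0.06, and Myc (-0.03 ± 0.07) and Junb (0.08 ± 0.06) were not called. Btg2, an antiproliferative regulator of RNA decay, fell by 1.66 ± 0.09 from 647, 529 and 612 to 161, 185 and 164, and Btg1 rose by 0.86 ± 0.07.

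Feedback inhibitors of ERK signalling fell in 11 of 20 cases and rose in 6, with a median of -0.35. Spry4 had 747, 722 and 743 in fed and 205, 230 and 203 in starved cells, a fall of 1.67 ± 0.08. Dusp1, a MAP kinase phosphatase, fell by 0.92 ± 0.08 and Dusp6, the cytoplasmic ERK phosphatase, by 0.65 ± 0.15. For Dusp6 the basal replicate 2 read 219 against 359 and 358 in the other fed libraries, close to the 182, 208 and 167 of the starved ones. The ETS factors Etv4 and Etv5 fell by 0.62 ± 0.08 and 0.38 ± 0.06. Spred2 and Spred1 rose, by 0.96 ± 0.11 and 0.61 ± 0.08, and so did Dusp10 (0.80 ± 0.08).

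Among targets of cytokine signalling, Socs3 and Cish, which are induced by STAT factors and shut the receptor down, both fell. The fall was 1.64 ± 0.07 for Socs3 and Cish fell by 1.71 ± 0.11. Socs3 read 1756, 1656 and 1722 in fed and 560, 500 and 531 in starved libraries. The chemokine Ccl7 fell from 409, 446 and 420 to 31.2, 57.0 and 61.2, or by 2.61 ± 0.14, the largest fall but 1 by the naming rule. Cxcl1 fell by 1.27 ± 0.11 and Ptgs2, the inducible prostaglandin synthase, fell by 1.26 ± 0.11, while Il6 was not called (-0.15 ± 0.12). Over chemokines, cytokines and their feedback genes 14 of 26 fell and 8 rose. Interferon stimulated genes rose in 8 of 21 cases (31.4% over all genes) and fell in 6 (31.3% over all genes). Of these genes 10 fell without the 2 libraries that stood apart and 3 without EBSS replicate 3. Irf4, a lymphoid interferon regulatory factor, was an exception in size, rising by 3.09 ± 0.11 from 6.01, 10.6 and 9.00 to 247, 235 and 206. Irf3 fell by 1.19 ± 0.09.

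Redox and heme genes rose in part. Hmox1, which degrades heme, had 1668, 1625 and 1655 in basal and 11194, 11806 and 12040 in EBSS libraries, a rise of 2.80 ± 0.06 (adjusted p = 8.86e-17). Nfe2l2, which encodes NRF2, rose by 1.16 ± 0.06. Bach1, the repressor that competes with NRF2 at heme-responsive genes, rose by 2.00 ± 0.09 from 858, 669 and 884 to 3274, 3315 and 3204. Gclc and Gclm, the subunits of the first enzyme of glutathione synthesis, rose by 1.67 ± 0.11 and 1.28 ± 0.08. Osgin1 rose by 1.62 ± 0.09 and Txnrd1 by 0.59 ± 0.06. Gsta4 fell by 0.50 ± 0.09, and over the list 16 of 30 rose and 7 fell. The NRF2 target Nqo1 had a change of -0.22 ± 0.08, a call lost without basal replicate 1 or 3 or EBSS replicate 1 or 2. Among iron genes Ireb2 and Tfrc rose by 1.07 ± 0.10 and 0.92 ± 0.07, and the ferritin genes Fth1 (-0.14 ± 0.11) and Ftl1 (0.00 ± 0.12) were not called. The letters of the antioxidant response element, TGACNNNGC, were in 4 of 11 promoters of the glutathione and redox enzymes and in 11.9% of all promoters.

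Among lipid genes, more of those for fatty acid use rose than fell, and more of those for sterol synthesis fell than rose. Angptl4, a secreted inhibitor of lipoprotein lipase and a PPAR target, had 44.1, 38.1 and 28.0 in basal and 721, 711 and 720 in EBSS libraries. It rose by 3.60 ± 0.13 (adjusted p = 2.88e-13), the largest rise but that of Slc30a1 by the naming rule. Cpt1a, which brings fatty acids into mitochondria, rose by 1.72 ± 0.07 from 3947, 3383 and 3557 to 12335, 12563 and 11078. Plin2, a lipid droplet coat protein, rose by 0.63 ± 0.07. Acadvl fell by 0.46 ± 0.08 and Cpt2 by 0.49 ± 0.07. In all 12 of 21 genes of the PPAR and oxidation list rose and 5 fell. Lpin1, a phosphatidate phosphatase, rose by 0.87 ± 0.08, while Fasn (0.06 ± 0.08) and Acly (0.06 ± 0.07) were not called.

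Of 20 enzymes of cholesterol synthesis 10 fell and 3 rose. Without basal replicate 3 the count of rises was 5, and with length and GC trends removed it was 1 against 9 falls. Fdft1, squalene synthase, fell by 1.17 ± 0.07 from 2091, 2247 and 2340 to 967, 881 and 1072, and Msmo1, Fdps and Hmgcs1 also fell, with changes of -0.75 ± 0.06, -0.72 ± 0.08 and -0.58 ± 0.09. Hsd17b7 went the other way, by 1.69 ± 0.10. Insig1, which retains the SREBP factors in the endoplasmic reticulum, rose by 1.56 ± 0.08, from 1241, 1011 and 1313 to 3301, 3511 and 3812. The cholesterol exporter Abca1 rose by 1.31 ± 0.10.

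Glucose genes were lower more often than higher, with 16 of 30 falling and 5 rising. Txnip, an alpha-arrestin that limits glucose uptake and follows the glucose sensor MondoA, fell by 0.89 ± 0.08 from 16896, 16713 and 16800 to 8049, 9826 and 9438. Its relative Arrdc4 fell by 1.09 ± 0.08. Pfkfb4 fell by 0.89 ± 0.09, Pfkp by 0.58 ± 0.06 and Slc16a3, the lactate exporter, by 0.77 ± 0.08, while Hk2 rose by 0.87 ± 0.07 and Slc2a1, the main glucose transporter of fibroblasts, was not called (-0.06 ± 0.06). With length and GC trends removed, or without EBSS replicate 3, only 3 of the list rose.

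Ribosomal protein mRNAs and ribosome assembly genes moved apart. All but 2 of 55 tested ribosomal protein genes fell (53), each by a small amount, with a median of -0.35 and a range of -0.52 to 0.01. The largest fall was that of Rps24, from 19613, 30061 and 23020 to 16996, 16220 and 16782, or 0.52 ± 0.11. Its basal replicate 2 was far above the other fed libraries, and no fed library was as low as a starved one. Rpl4 (-0.04 ± 0.06) and Rpl7a (0.01 ± 0.07) were not called. Without the 2 libraries that stood apart 50 of 55 fell with a median of -0.26. These mRNAs are short, and with length and GC trends removed 25 fell and 1 rose, with a median of -0.14, so the count depends on that step. Ribosomal protein genes have many processed copies in the genome, and their reads may have been assigned unevenly.

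Genes of RNA polymerase I and ribosome processing rose in 28 of 40 cases and fell in 4 (2 without basal replicate 2), with a median of 0.32, and with length and GC trends removed 32 rose and 4 fell. Tsr1, of small subunit maturation, rose by 1.75 ± 0.08 from 218, 185 and 230 to 724, 788 and 815. Ddx21 rose by 1.01 ± 0.07, the polymerase I factor Ubtf by 0.91 ± 0.08, Nop58 by 0.86 ± 0.07 and Gnl3 by 0.74 ± 0.06. Nop16 and Noc2l fell by 0.64 ± 0.09 and 0.63 ± 0.06. Of 31 initiation and elongation factors 13 rose and 6 fell. Eif3a rose by 0.83 ± 0.07, Pdcd4, an inhibitor of the helicase eIF4A, by 0.75 ± 0.07 and Eef2k, the kinase that stops elongation, by 0.72 ± 0.06.

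Nuclear genes of the respiratory chain fell in 18 of 31 cases and rose in 2, with a median of -0.23. With length and GC trends removed 11 fell and 4 rose, with a median of -0.07. Of 13 mitochondrially encoded mRNAs 7 fell, with ND6 at -1.25 ± 0.14 and COX1 at -0.47 ± 0.15, the latter at -0.24 and not called without EBSS replicate 1. ND6 was the only member that fell by at least 1. Use of strand in counting is not given, so genes that overlap on opposite strands may share reads. Without the 2 libraries that stood apart 6 fell and 2 rose, and the lower mitochondrial share of EBSS replicate 1 given above moves with this result. Its part in the result was otherwise not tested, and in bulk samples fewer cells of a kind and less RNA per cell cannot be told apart.

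**Figure D3:**
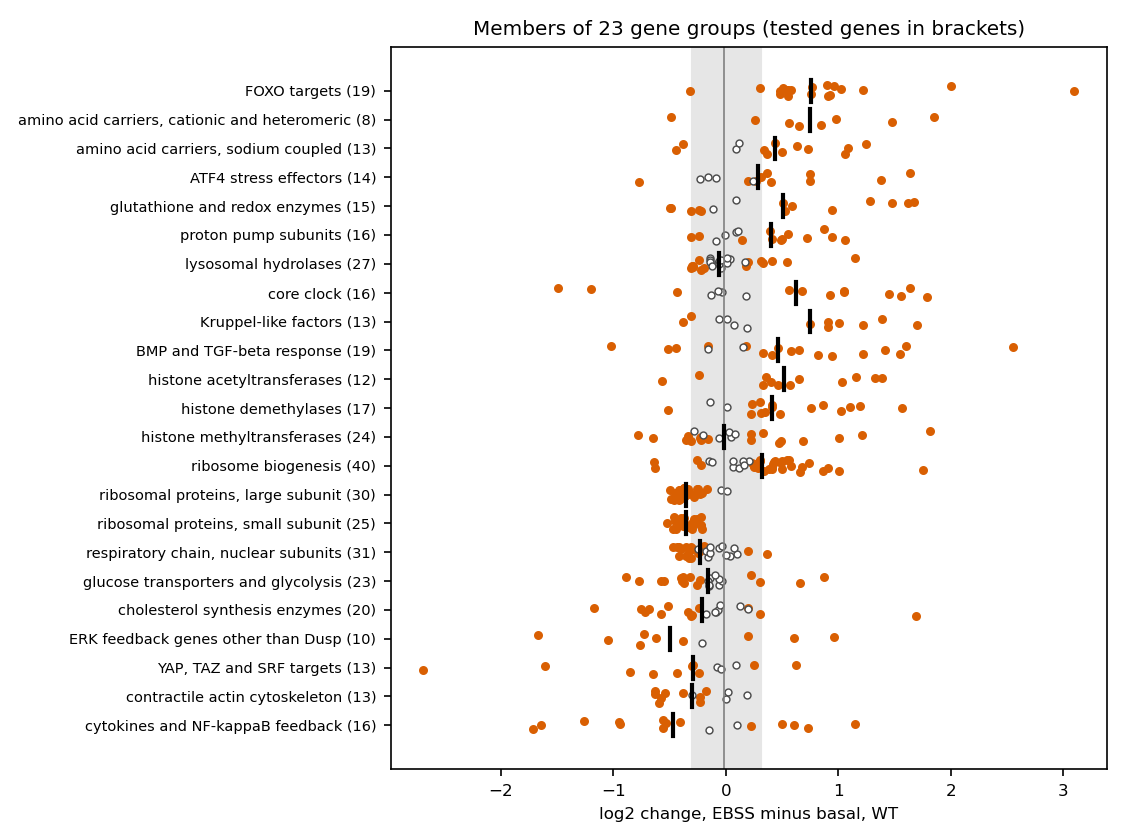
Log2 change of EBSS over basal in WT for every tested member of 23 gene groups, orange where called and white where not, with a black bar at the group's median, the grey band from the first to the third quartile of all tested genes and the grey line their median of -0.02. FOXO targets have a median of 0.76 and the 2 ribosomal protein groups medians of -0.36 and -0.35.

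Part of the clock, KLF and BMP pathway genes changed by at least 1, among them 4 of 13 KLF genes and 6 of 19 in the BMP and TGF-beta list. In the circadian list 12 of 19 genes rose and 3 fell, with a median of 0.68. The PAR bZIP output factors all rose, Hlf by 2.53 ± 0.11 (101, 67.7 and 100 to 664, 665 and 585), Tef by 1.03 ± 0.06 and Dbp by 0.48 ± 0.07. In the core clock Nr1d2 rose by 1.79 ± 0.09, Bhlhe41 by 1.64 ± 0.09, Arntl (BMAL1) by 1.56 ± 0.09 and Nr1d1 by 1.45 ± 0.10. Per1 fell by 1.49 ± 0.10, from 1466, 1574 and 1334 to 412, 549 and 552, while Per2 rose by 1.05 ± 0.13. Nfil3, which opposes the PAR bZIP factors, fell by 1.20 ± 0.08. Cells were taken at 1 time after the medium change, so phase and level of the clock genes cannot be told apart.

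Of 13 Kruppel-like factors 7 rose and 2 fell. Klf7 rose by 1.70 ± 0.10 from 331, 225 and 309 to 1014, 996 and 957, Klf4 by 1.39 ± 0.09, Klf9 by 1.22 ± 0.12 and Klf10 by 1.01 ± 0.08, while Klf13 and Klf16 fell by 0.38 ± 0.06 and 0.31 ± 0.08. In the BMP and TGF-beta list 13 of 19 rose and 4 fell. Id2, a dominant negative bHLH factor, rose by 2.55 ± 0.12 from 143, 81.5 and 102 to 812, 726 and 730. Id3 moved in the opposite direction, by -1.02 ± 0.06, from 2259, 2349 and 2275 to 1111, 1087 and 1155. Skil rose by 1.60 ± 0.09, Smad6 by 1.55 ± 0.08 and Id4 by 1.42 ± 0.12. Outside these lists Sox9, a factor of cartilage development, rose by 2.46 ± 0.06, and Cebpd fell by 1.78 ± 0.10. Cebpa, a factor of fat cell development on the adipocyte list, rose by 2.24 ± 0.10 with normalized counts of 107, 139 and 120 in fed and 696, 642 and 687 in starved cells. The summed adipocyte markers read 760 to 929 in basal and 1169 to 1247 in EBSS libraries, with Cidec at 0. Cebpa is part of that sum, and without its counts the sum was lower in every starved library than in every fed one. Of the 9 markers 3 were tested, of which 2 rose and 1 fell (by 0.43), and 6 had at most 3 reads in any WT library.

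In the list of actin genes, YAP, TAZ and SRF factors and their targets 19 of 34 tested genes fell and 6 rose. The targets fell in 8 of 13 cases and rose in 2, while the factors themselves rose in 4 of 8 and fell in 2. Lbh had the largest fall of all by the naming rule, from 7575, 6563 and 7418 to 983, 1137 and 1154, or 2.69 ± 0.09. Ccn1 (CYR61), a matrix protein and YAP target, fell by 1.61 ± 0.13 from 5975, 5445 and 6038 to 1445, 1832 and 2555, and Ccn2 (CTGF) by 0.65 ± 0.15, or 0.43 without EBSS replicate 1. In the contractile cytoskeleton 9 of 13 fell. Actb fell by 0.63 ± 0.07, from 48123, 52819 and 49941 to 29878, 33280 and 34379, and Myl9, Tpm2 and Acta2 fell by 0.63 ± 0.10, 0.59 ± 0.08 and 0.54 ± 0.10. Vcl rose by 0.62 ± 0.10 and Wwtr1, which encodes TAZ, by 1.12 ± 0.07. Of 53 matrix genes 10 rose (31.4% over all genes), 16 fell (31.3% over all genes) and 27 were not called. Among them Loxl2, a collagen cross-linking enzyme, rose by 1.12 ± 0.14, Adamts1 fell by 0.96 ± 0.10 and Col1a1 by 0.35 ± 0.09, or 0.22 without the 2 libraries that stood apart. The falls among matrix genes numbered 24 instead of 16 with length and GC trends removed. In the Wnt list, where 7 of 16 rose and 2 fell, Wnt9a rose by 3.00 ± 0.11, from 96.2, 70.9 and 90.0 to 784, 862 and 963, and Fzd1 by 1.71 ± 0.09.

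Enzymes that write, erase and read histone marks were measured because the series is titled for chromatin remodelling in fasting. Histone acetyltransferases rose in 10 of 12 cases and fell in 2. Kat6b rose by 1.39 ± 0.11, Ep300 (p300) by 1.33 ± 0.11, Kat6a by 1.16 ± 0.09 and Ncoa2 by 1.03 ± 0.11, while Kat2a fell by 0.57 ± 0.09. Kat8 fell by 0.24 ± 0.09, a call lost without basal replicate 2 or EBSS replicate 1 or 3, and with length and GC trends removed. Ep300 counted 1287, 929 and 1197 in fed and 3433, 2827 and 2434 in starved libraries. Bromodomain readers rose in 4 of 5 cases, with Brd1 at 1.36 ± 0.08 and Brd2 at 1.23 ± 0.05, and Brd3 (-0.14 ± 0.06) was called lower with length and GC trends removed and, among libraries left out singly, only without basal replicate 2. Of 17 deacetylases, sirtuins and co-repressors 6 rose (31.4% over all genes) and 8 fell (31.3% over all genes). Beside Sirt1, Hdac4 rose by 1.01 ± 0.08, and Hdac7, Sirt6 and Sirt7 fell by 0.74 ± 0.07, 0.73 ± 0.09 and 0.59 ± 0.08.

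Histone demethylases rose in 14 of 17 cases and fell in 1, with a median of 0.41. Kdm3a rose by 1.57 ± 0.09 from 1308, 970 and 1294 to 3709, 3605 and 3340, Kdm7a by 1.19 ± 0.10, Kdm2a by 1.10 ± 0.08 and Kdm5a by 1.02 ± 0.09, and Kdm1a (LSD1) fell by 0.51 ± 0.07. After the length and GC trends were removed 12 rose and 3 fell, and without basal replicate 2 there were 2 falls. Methyltransferases rose in 9 of 24 cases (31.4% over all genes) and fell in 9 (31.3% over all genes), or in 5 without EBSS replicate 3. The largest rise was that of Kmt5b, which methylates histone H4, from 631, 656 and 680 to 2502, 2414 and 2248, or 1.82 ± 0.07. Kmt2e rose by 1.21 ± 0.10 and Setd1b by 1.01 ± 0.08, and Ehmt2 (G9a) fell by 0.78 ± 0.07. ATP-dependent remodellers rose in 15 of 32 cases and fell in 5, but with length and GC trends removed 11 rose and 10 fell, and without the 2 libraries that stood apart 14 rose and 8 fell. Chd7 rose by 0.84 ± 0.13, Ino80 by 0.71 ± 0.06 and Arid2 by 0.69 ± 0.08, and Baz1a fell by 0.73 ± 0.16.

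On the list of long noncoding RNAs 7 of 11 tested genes fell (31.3% over all genes) and 2 rose (31.4% over all genes). On a separate list of 13 noncoding hosts of small nucleolar RNAs 3 rose and 3 fell. Neat1, the scaffold of paraspeckles, fell by 1.96 ± 0.08 from 32803, 32144 and 37246 to 8040, 8522 and 9685. Mir100hg fell by 1.94 ± 0.07 from 3992, 4082 and 4293 to 1016, 997 and 1148, and Meg3 and Malat1 fell by 1.07 ± 0.12 and 0.69 ± 0.15. Norad rose by 0.51 ± 0.05. Several of these RNAs are retained in the nucleus, and poly-A RNA of whole cells does not show where they lie. Forms without a poly-A tail are not measured by such libraries, so these falls need not hold for the total level of each RNA.

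Genes of DNA replication rose in 11 of 24 cases and fell in 5, and those of mitosis fell in 8 of 22 and rose in 2. Over all genes 31.4% rose and 31.3% fell. Pcna rose by 0.86 ± 0.06, Slbp by 0.80 ± 0.07 and the cell cycle inhibitor Cdkn1a (p21) by 0.79 ± 0.07, while Ccnd3 fell from a mean of 6248 to 3110 and the CDK inhibitor Cdkn2d fell by 2.04 ± 0.10. Without EBSS replicate 1 mitosis genes fell in 5 cases and rose in 4. Of 14 p53 targets 7 rose and 5 fell, with a median of 0.10. Among them Trp53inp1, an autophagy and stress factor, rose by 1.76 ± 0.09 and Eda2r by 1.48 ± 0.11. Btg2, also on this list, fell by 1.66, and Ccng1 fell by 0.25 ± 0.06. Of 12 tested BCL2 family genes 3 rose and 5 fell. The BH3-only gene Bmf rose by 1.19 ± 0.06, and the survival gene Bcl2l1 fell by 0.72 ± 0.06. Chaperones showed no common direction, 14 of 35 rising and 8 falling, with Dnajb9 at 1.47 ± 0.10 and Xbp1 at -0.82 ± 0.09. Removing length and GC trends left 8 chaperones that rose and 4 that fell, and with quantile normalization 14 fell.

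The other genes among the 20 largest rises and falls belong to no list. Fes, a cytoplasmic tyrosine kinase, had 8.02, 6.35 and 11.0 in basal and 187, 174 and 187 in EBSS libraries and rose by 2.81 ± 0.14. Klhl21, a ubiquitin ligase adaptor, rose by 2.61 ± 0.07 and Add3, a membrane skeleton protein, by 2.56 ± 0.10. The remaining rises, Fam110c, Slc16a8, Rybp, Fam180a and Slc23a3, lay between 2.31 and 2.56. Among the falls, Rgs3, a regulator of G protein signalling, fell by 2.48 ± 0.10 from 990, 1025 and 905 to 133, 170 and 157, and Ankrd34a fell by 2.31 ± 0.12. A4galt, Carmn, Trib2, Trim46, Rasl11a, Dok1, Prr33 and Adm fell by 1.66 to 2.08.

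The EBSS effect of WT was set against that of Vps15KO by the interaction term over all 12 libraries, the 2 effects resting on separate libraries. The difference, Vps15KO minus WT, was called positive in 1363 genes (9.55%) and negative in 1177 (8.24%), and reached at least 1 in either direction in 118 (0.826%). Wnt9a rose by 3.00 in WT and 0.76 in Vps15KO, a difference of -2.24 ± 0.15 (adjusted p = 3.57e-08). Mt2 rose by 2.56 in WT and 0.62 in Vps15KO (difference -1.93 ± 0.12) and Hmox1 by 2.80 and 1.20 (-1.60 ± 0.08). Slc30a1 differed less, by -0.73 ± 0.14.

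The other large negative differences were those of Add3 (-1.62), Hlf (-1.29), Evx2 (-1.47), Nkx3-2 (-1.46), Peg10 (-1.28), Mt1 (-1.27) and Txnip (-1.27), the last of which fell by 0.89 in WT and fell by 2.16 in Vps15KO. The largest positive difference was that of Nr4a1, which fell by 0.72 in WT and rose by 1.69 in Vps15KO (2.41 ± 0.12, adjusted p = 8.83e-10). Egr1 fell by 0.49 in WT and rose by 1.80 in Vps15KO (2.29 ± 0.13). Fos likewise fell in WT and rose in Vps15KO (difference 1.31 ± 0.15). The next positive differences were Carmn (2.11), Btg2 (1.79), Plcxd2 (1.76), Bvht (1.75), Trim46 (1.67), Bhlhe40 (1.63), Lbh (1.59) and Pygm (1.51).

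Counts of the difference by list are read against all genes tested, of which 9.55% were positive and 8.24% negative. By list, immediate early genes had a positive difference in 17 of 30 cases and a negative one in 2, ERK feedback genes in 10 and 2 of 20, and the actin, YAP and SRF list in 15 and 1 of 34. The FOXO list was negative in 11 of 23 and positive in 3, the NRF2, heme and iron list in 11 and 2 of 30, and the PPAR list in 9 and 1 of 21. Folliculin complex genes differed each in their own way, Fnip2 at -1.20 ± 0.09, Fnip1 at -0.53 ± 0.14 and Flcn at 0.40 ± 0.08, and Rragc was not called (-0.03 ± 0.08). Slc7a1, Atg14, Socs3, Neat1, Irf4 and Sirt1 had differences between -0.09 and 0.25, none of them called, which does not show that the genotypes respond alike.

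**Figure D4:**
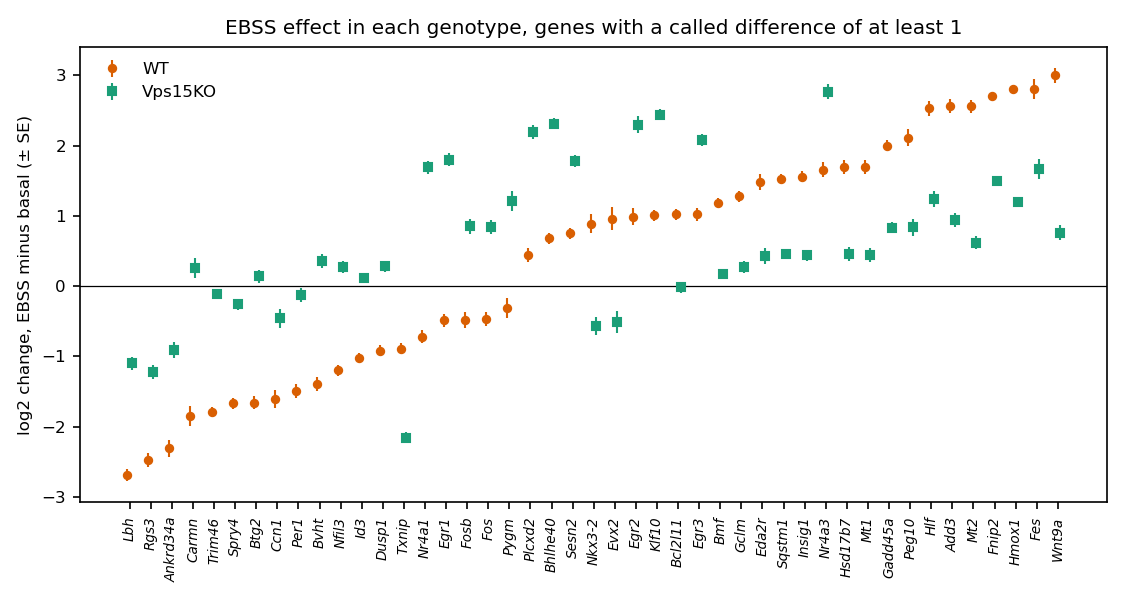
Log2 change of EBSS over basal (± SE of the fit) in WT (circles) and Vps15KO (squares), each from 3 libraries against 3, for the genes of the report whose difference was called and at least 1, in the order of the WT change. Nr4a1 and Egr1 lie below 0 in WT and above it in Vps15KO, and Wnt9a, Mt2 and Hmox1 lie higher in WT.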

How the data were processed

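Poly-A RNA of 12 fibroblast libraries was measured, 3 in each of 4 groups, and groups were taken from the labels. The authors deposited log2 values, 1 per gene and library. Per the submitters' processing notes STAR 2.7.10b, featureCounts, DESeq2, limma and the mm10 build were used, with no role given to each, and use of strand in counting is not given in the sources used here. The values turned out to be a variance-stabilizing transform with a floor of 3.83. Worked back, they gave whole reads for all 32721 genes within 0.001, and libraries of 21278921 to 21698584 reads in genes. Every column of the table was used.

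The filter on the deposited log2 values kept 14279 genes whose mean over all libraries exceeded the floor by 1 or more, and these were tested with limma 3.58.1 in R 4.3.3, as group means over all 12 libraries with a variance trend, two-sided, with Benjamini-Hochberg adjustment over all genes tested. A gene was called at an adjusted p under 0.05. The fit had 8 residual and 10.19 prior degrees of freedom, and it was tested on simulated data first. The libraries were of similar depth, and genes with few reads carry the most counting error.

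The members and the 49 gene lists were chosen with earlier results of these data known. Named genes are Pik3r4, the 20 largest rises and 20 largest falls of called genes without overlap between groups (predicted genes, clones and pseudogenes left out), up to 6 members with the smallest p in each list, every member of role groups of at most 10 genes, and the 10 largest differences between genotypes in each direction. A further 70 genes fall outside that rule and were chosen after their values were seen. Promoters from RefSeq were searched for 10879 of the tested genes. Alternatives covered the scale, filter, normalization, variance model, library weights, voom on worked-back reads, threshold, removal of length and GC trends, the replicate number, and omission of each library or of both that stood apart. Some members of the lists are not reported here.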

Additional observations from a re-analysis of the deposited data

Results flagged for a closer look

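The EBSS effect differed between Vps15KO and WT by at least 1 on the log2 scale, by the called interaction term of limma with 3 libraries in each of the 4 groups, in 45 of the genes named above. Values are the Vps15KO effect minus the WT effect. Among genes of growth factor signalling and its feedback the difference was 2.41 for Nr4a1, 2.29 for Egr1, 1.79 for Btg2, 1.41 for Spry4, 1.33 for Fosb, 1.31 for Fos, 1.31 for Egr2, 1.24 for Rgs3, 1.20 for Dusp1, 1.11 for Nr4a3 and 1.06 for Egr3. Nr4a1, Egr1, Fos and Fosb fell in WT and rose in Vps15KO, while Egr2, Egr3 and Nr4a3 rose in both.

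Other transcription regulators and clock genes with positive differences were Bhlhe40 (1.63), Nfil3 (1.46), Klf10 (1.43), Per1 (1.36) and Id3 (1.14). The YAP and SRF list held Lbh (1.59) and Ccn1 (1.14), both of which fell in both genotypes. Further positive differences were those of the noncoding RNAs Carmn (2.11) and Bvht (1.75), and of Plcxd2 (1.76), Trim46 (1.67), Pygm (1.51), Ankrd34a (1.40) and Sesn2 (1.04).

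Negative differences among zinc, heme and redox genes were those of Mt2 (-1.93), Hmox1 (-1.60), Mt1 (-1.27), Sqstm1 (-1.08) and Gclm (-1.01), all of which rose in both genotypes. Genes of cell death and damage were Gadd45a (-1.16), Eda2r (-1.05), Bcl2l11 (-1.04) and Bmf (-1.02). Bcl2l11 changed by -0.02 in Vps15KO, which was not called. Nutrient and sterol genes were Txnip (-1.27), Hsd17b7 (-1.24), Fnip2 (-1.20) and Insig1 (-1.12). The rest were Wnt9a (-2.24), Add3 (-1.62), Evx2 (-1.47), Nkx3-2 (-1.46), Hlf (-1.29), Peg10 (-1.28) and Fes (-1.13). Evx2 and Nkx3-2 rose in WT and fell in Vps15KO.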

How the results depend on the processing

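In WT, 4111 to 4451 genes rose and 4031 to 4448 fell when 1 library was left out, against 4486 and 4468 with all libraries. The count of rises of at least 1 ranged from 468 to 601 and that of falls from 209 to 265. The threshold of 1 depends on the scale: with the log2 of the normalized count plus 1, 931 genes rose and 583 fell by that much, and with voom 957 and 615, since the deposited scale shrinks changes of genes with few reads. The difference between genotypes was positive in 1023 to 1659 genes and negative in 832 to 1516 with 1 library left out. At an adjusted p under 0.01 these counts were 707 and 520, and with library weights the negative count was 1805 (the cause was not tested). Becn1 had its direction reversed, to -0.17 with length and GC trends removed. The replicate number was checked as a pairing. Libraries of the same number had correlations of -0.08172, -0.1548 and -0.04181 and those of different numbers -0.04047 to 0.1419. No library correlated best with its own number. These are correlations of deviations from the means of 3 libraries, of which some stood apart. They cannot show whether libraries of the same number share a culture or batch. With the replicate block 4475 genes rose and 4464 fell, by at least 1 in 558 and 239, and the difference was positive in 1360 and negative in 1175. Among named genes the block took away the calls of Slc30a6 and Slc39a14 and changed no other call. Of 319 results for named genes, 32 changed their call in at least 1 of 26 alternatives. Removal of length and GC trends moved the most: 13 calls were lost and 8 gained, the gains including Tsc2 (-0.17), Ctsb (-0.18), Igf1r (-0.23), Junb (0.35), Ftl1 (0.34) and Rpl7a (0.21), and Klf16, Fkbp8 and Atp6v1f were among the losses. Genes with few reads, such as Rragd and Irf4 in fed cells, are limited by counting error.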
